A study of Mus musculus with 12 samples.

Results

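H19, Igf2, Kcnq1ot1, Cdkn1c, Ascl2, Phlda2, Slc22a18, Nap1l4 and Tssc4 are genes of the imprinted region on the distal part of mouse chromosome 7. They were taken as a set by name, not by their values. Probes were assigned to them through the transcript name that the scanner files give for each probe. All 9 genes had a probe, 15 probes of the 55681 on the array in all. All 9 also passed the filter on dim probes, among 24463 genes tested. H19 has 5 probes, Kcnq1ot1 and Nap1l4 have 2 each, and the other genes have 1.

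Total RNA of a mouse embryonic stem cell line was measured on 12 one-colour arrays. The cells carried a null allele of Nat1 or were wild type (WT), and each genotype was grown in LIF, or in LIF together with 2i, on gelatin. The groups, of 3 arrays each, are the Nat1-null cells with 2i+LIF, the Nat1-null cells with LIF alone, and the WT cells with 2i+LIF and with LIF alone. LIF is a cytokine that holds mouse embryonic stem cells undifferentiated, and 2i stands for small molecules that block the kinases MEK and GSK3. Nat1 is taken here as the gene now called Eif4g2, a relative of the translation initiation factor eIF4G. How the null allele was made, and how many clones or cultures were used, are not given in the sources used here. All 4 groups share the LIF and the gelatin, so no group shows the cells without LIF.

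An imprinted gene is transcribed mainly from the copy inherited from one parent. In the H19 and Igf2 domain, an imprinting control region is methylated on the paternal chromosome. On the unmethylated maternal chromosome it binds CTCF, which insulates Igf2 from enhancers that H19 then uses, so H19 is made from the maternal copy and Igf2 from the paternal one. In the neighbouring domain, the promoter of the long noncoding RNA Kcnq1ot1 is methylated on the maternal chromosome. The paternal copy makes Kcnq1ot1, which silences flanking genes on the same chromosome, so Cdkn1c, Phlda2, Slc22a18 and, mainly in placenta, Ascl2, Tssc4 and Nap1l4 are made from the maternal copy. The arrays measured the sum of both parental copies, so they hold no allele-specific value.

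The promoters of Kcnq1ot1 and Ascl2 are shown because these genes differed in opposite directions between Nat1-null and WT cells in 2i+LIF. Each is the RefSeq window of 300 bases, from 250 bases before the annotated start to 50 after it, on assembly GRCm38.p6. Capitals mark CCAAT or its reverse complement ATTGG, the core of the CCAAT box. Both sequences lie on the minus strand, at chr7:143296498-143296797 for Kcnq1ot1 and chr7:142969215-142969514 for Ascl2.
Kcnq1ot1: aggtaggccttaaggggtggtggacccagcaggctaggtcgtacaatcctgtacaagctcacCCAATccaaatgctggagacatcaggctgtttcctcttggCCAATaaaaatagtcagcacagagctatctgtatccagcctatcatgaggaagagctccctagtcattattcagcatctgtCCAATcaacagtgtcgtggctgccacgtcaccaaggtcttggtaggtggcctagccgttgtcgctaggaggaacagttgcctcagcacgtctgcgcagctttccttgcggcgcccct
Ascl2: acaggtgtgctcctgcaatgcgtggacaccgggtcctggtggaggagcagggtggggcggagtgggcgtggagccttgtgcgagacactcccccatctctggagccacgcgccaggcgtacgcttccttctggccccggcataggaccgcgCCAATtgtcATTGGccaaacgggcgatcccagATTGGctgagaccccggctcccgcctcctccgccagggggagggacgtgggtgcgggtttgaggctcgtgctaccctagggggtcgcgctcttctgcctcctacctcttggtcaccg
Each window holds 3 matches, which in Kcnq1ot1 begin 188, 148 and 67 bases before the start. At least 1 match on either strand was present in 37.4% of 32817 promoter windows, and at least 3 in 3.37%. This motif was chosen after the sequences had been seen. The Ascl2 window has 23 CG dinucleotides and the Kcnq1ot1 window 9, against a median of 7 over the windows. TGCCGC, the core that the imprint-protecting factor ZFP57 reads, was in neither window and in 11.6% of all of them. The CTCF motif form that was searched was in neither and in 0.0366% of all. The RefSeq table held windows for 6 of the 9 genes. H19, Cdkn1c and Nap1l4 are named only.

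A level here is the log2 processed signal of a probe relative to that array's 75th percentile, so that 0 is a bright probe. Differences are of these levels, tested with limma over all 24463 genes, and a call is an adjusted p below 0.05. Levels are not compared between probes, whose binding differs. Eif4g2 had levels of 1.24, 1.28 and 1.42 in Nat1-null cells in 2i+LIF, against 4.23, 4.09 and 4.29 in WT cells in 2i+LIF. In LIF it had 1.32, 1.26 and 1.25 in Nat1-null cells, against 4.54, 4.49 and 4.44 in WT cells. It was thus 7.42-fold lower in Nat1-null cells in 2i+LIF and 9.28-fold lower in LIF. Where its probe lies relative to the disrupted part is not given. All Nat1-null arrays are on 1 slide, and the WT arrays of each medium are on a slide of their own. Genotype and slide cannot be told apart, nor can medium and slide in WT cells, whereas the Nat1-null arrays in both media share a slide. On that slide, 4 arrays (Nat1-null LIF replicate 3 and all of Nat1-null 2i+LIF) form a row with 49.8% to 55.1% of spots well above background. The other 8 arrays had 56.3% to 66.3%.

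All 8 embryonic stem cell markers, Pou5f1 and Nanog among them, were well above background in all 4 groups. Signals of a marker list were summed on the linear scale, in units of the array's 75th percentile. The stem cell markers summed to 772 to 850 in Nat1-null cells in 2i+LIF, 772 to 899 in Nat1-null cells in LIF, 797 to 876 in WT cells in 2i+LIF and 495 to 514 in WT cells in LIF. Against WT cells in LIF, 8 of the 8 were called higher in Nat1-null cells in LIF, and 6 were called higher and 1 lower in WT cells in 2i+LIF. Over all genes, 33.9% were called higher in the first comparison. In the second, 62.2% of the 24463 genes were called, 8565 genes higher and 27.2% lower. The 12 fibroblast and feeder markers summed to 192 to 205 in Nat1-null cells in 2i+LIF, 120 to 138 in Nat1-null cells in LIF, 166 to 175 in WT cells in 2i+LIF and 407 to 431 in WT cells in LIF. Of that list, Lum was not above background in any group, Postn was so only in WT LIF, and Dcn was not in the Nat1-null groups. The 9 trophoblast markers measured besides Ascl2 summed to 31.8 to 34.5, 11.6 to 13.0, 24.1 to 26.4 and 176 to 201 in the same order of groups. Cdx2 was not above background in any group but WT LIF, and Plac1 was not in WT 2i+LIF or Nat1-null LIF. The 10 primitive endoderm markers summed to 185 to 218, 169 to 187, 99.2 to 101 and 252 to 288. The 5 mesoderm markers measured summed to at least 9.59 on every array of the other 3 groups, against 7.52 to 7.76 in WT cells in LIF. WT cells in LIF thus had the highest sums of the fibroblast, trophoblast and primitive endoderm lists, and the lowest sums of the stem cell and mesoderm lists. Such sums are weighted to the brightest genes. These include Fn1 (mean level 7.38 in Nat1-null 2i+LIF) for fibroblast, and Sparc (7.97) and Kdr (2.88) in WT LIF for primitive endoderm and mesoderm. Of 11 fibroblast and feeder markers tested, 1 was called higher and 10 lower in Nat1-null than in WT cells in LIF. Their median difference was -4.44, with Acta2 at -9.62. For 2i+LIF in WT cells, 1 was called higher and 8 lower (median -4.59). Lower calls over all genes were 32.9% and 27.2%. Dcn and Postn passed the filter through WT LIF alone, so their falls were favoured by inclusion. Of the 10 primitive endoderm markers, 3 were called higher and 5 lower in Nat1-null than in WT cells in LIF, with Gata6 6.82-fold higher. Of 3 mesoderm markers tested there, 2 were called higher and 1, Hand2, lower. In bulk RNA, fewer cells of a type and less RNA per cell cannot be told apart.

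H19, a maternally made noncoding RNA that is abundant in the embryo, showed the largest difference of the set between the genotypes in LIF and between the media in WT cells. Its probe with the highest mean had levels of -3.91, -3.62 and -3.38 in Nat1-null cells in 2i+LIF and -3.87, -3.82 and -4.49 in Nat1-null cells in LIF. The levels were -2.52, -2.63 and -2.05 in WT cells in 2i+LIF, against 3.65, 3.72 and 3.90 in WT cells in LIF. WT cells in LIF stood far above the other 3 groups, and the Nat1-null arrays lay near background, with 2 of 3 arrays of each Nat1-null group well above it. Nat1-null cells in LIF were 226-fold lower than WT cells in LIF (log2 difference -7.82 ± 0.21, SE of the fit, n = 3 each, adjusted p = 2.2e-09). WT cells were 71.4-fold lower in 2i+LIF than in LIF (difference -6.16 ± 0.21, adjusted p = 2.2e-08). In 2i+LIF, Nat1-null cells were 2.36-fold lower than WT cells (adjusted p = 0.0011), a difference between groups close to background. The 2 media did not differ by the test in Nat1-null cells (difference 0.42, adjusted p = 0.15). That last difference was 0.85 when Nat1-null LIF replicates 1 and 2 were left out so that both groups came from the same slide row. This leaves 1 Nat1-null LIF array, which was not well above background, so only the size is given.

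The 5 H19 probes gave the same direction and a call in 3 of these comparisons. Their log2 differences were -9.67 to -7.82 for genotype in LIF, -2.02 to -1.24 for genotype in 2i+LIF, and -7.00 to -6.16 for 2i+LIF in WT cells. For 2i+LIF in Nat1-null cells they ran from -0.06 to 0.65, and 1 of the 5 was called (0.65, adjusted p = 0.041). At that probe 1 array of each Nat1-null group was well above background. Against Nat1-null cells in LIF, 3 of the probes have only a bound, because no Nat1-null array was well above background. By these, H19 was at least 122-, 134- and 105-fold lower in Nat1-null cells than in WT cells in LIF, taking as the floor the lowest signal well above background on each array. In 2i+LIF the same 3 probes were again not well above background on any Nat1-null array, and WT cells lay too close to the floor for the bound to give a size. With background modelled by normexp, which compresses dim signals, the difference in LIF was -6.60 and that in 2i+LIF was -0.80, both called. Fibroblast, trophoblast and primitive endoderm marker sums were also highest in WT cells in LIF, and stem cell and mesoderm sums lowest, and their part in the H19 result was not tested.

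Igf2, the paternally made fetal growth factor, was well above background only in WT cells in LIF. Its levels were -5.84, -6.42 and -6.56 in Nat1-null cells in 2i+LIF and -5.79, -5.46 and -6.16 in Nat1-null cells in LIF. They were -5.86, -5.87 and -5.67 in WT cells in 2i+LIF, against -2.14, -2.19 and -2.24 in WT cells in LIF. The 9 arrays of the first 3 groups were all not well above background, so their order has no meaning. Igf2 was at least 6.88-fold lower in Nat1-null than in WT cells in LIF (adjusted p = 1.9e-07). It was at least 7.01-fold lower in 2i+LIF than in LIF in WT cells (adjusted p = 3.7e-07). It passed the filter through its signal in WT LIF alone, so a difference from that group was required for it to be in the analysis. Under normexp the differences were -1.51 and -1.28, smaller than these bounds, and both were called. H19 and Igf2 are made from opposite parental copies, and both had their highest level in WT LIF. For Igf2 this was required by the filter, so it cannot bear on the parental copies.

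**Figure D1:**
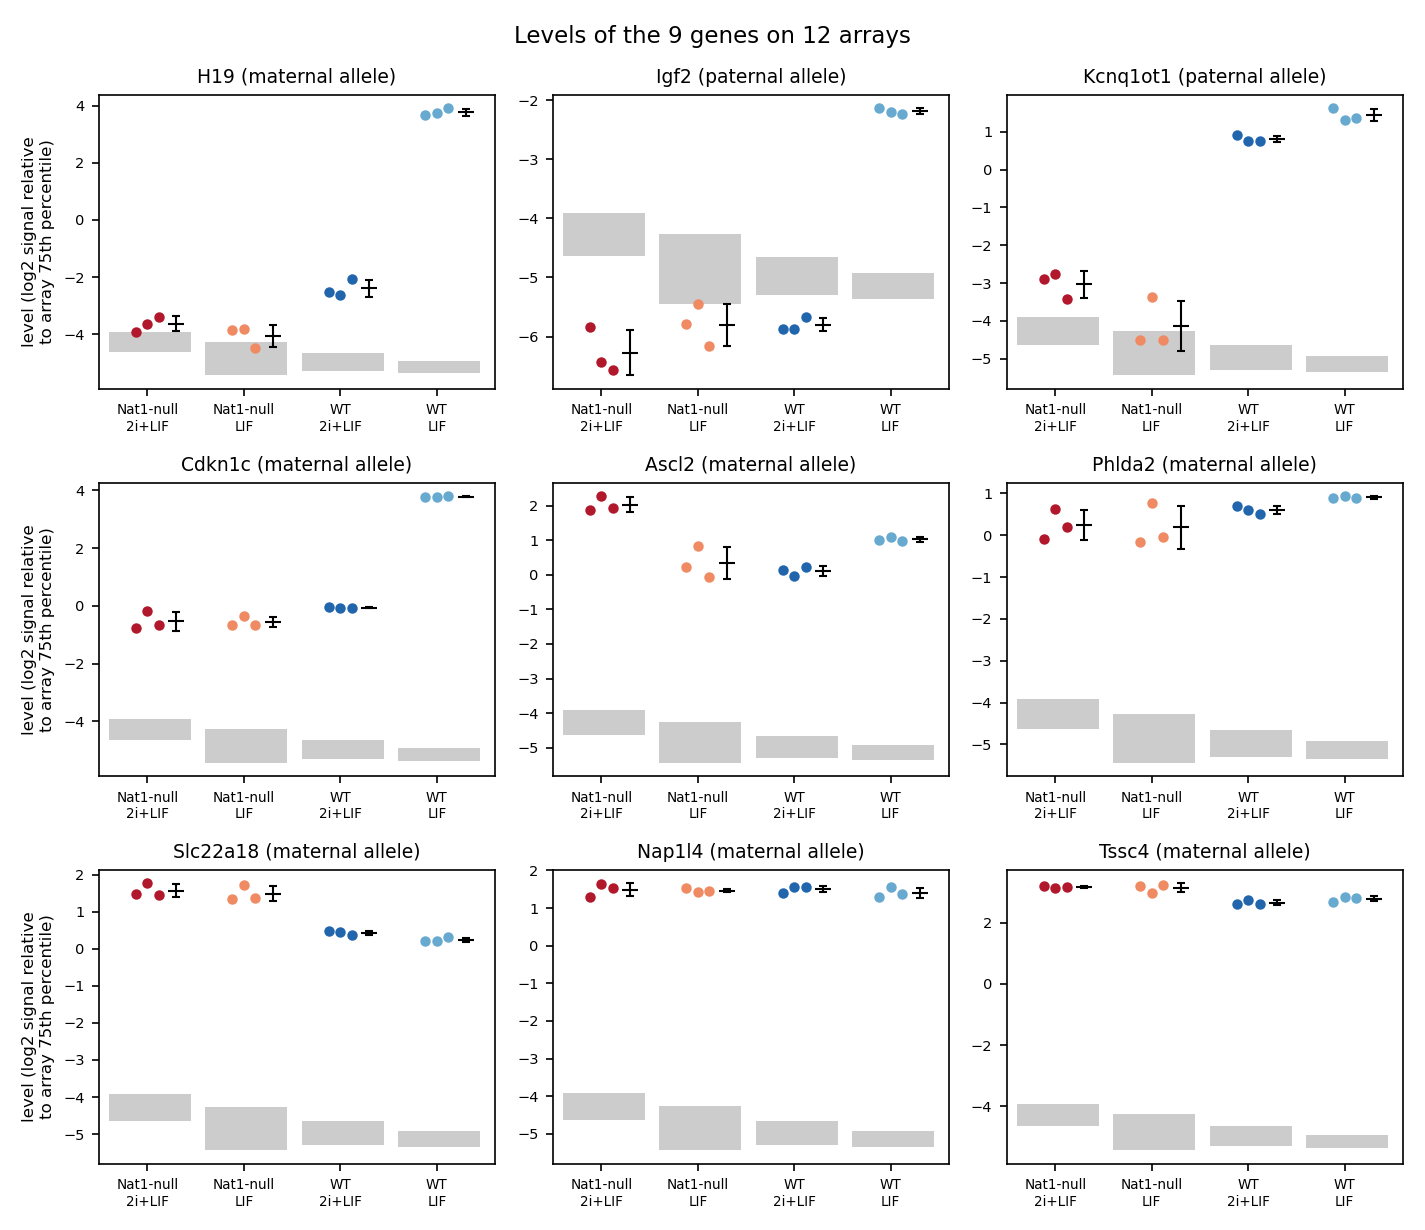
Level of each gene (log2 signal relative to the array's 75th percentile, 1 probe a gene, y axes differ) on the 3 arrays of each group, with the mean and SD in black; panel titles give the parental copy known to be active. Grey bands span the lowest signal well above background on the arrays of a group. H19, Igf2 and Cdkn1c stand high in WT LIF only, Kcnq1ot1 is high in both WT groups, and Slc22a18 is higher in both Nat1-null groups.

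Kcnq1ot1, the paternally made noncoding RNA that silences its neighbours in cis, separated the genotypes in both media. Its brighter probe had levels of -2.90, -2.77 and -3.43 in Nat1-null cells in 2i+LIF, against 0.92, 0.76 and 0.76 in WT cells in 2i+LIF. In LIF the levels were -4.51, -3.38 and -4.51 in Nat1-null cells, against 1.62, 1.32 and 1.37 in WT cells. No Nat1-null array reached any WT array in either medium. Nat1-null cells were 14.4-fold lower in 2i+LIF (difference -3.85 ± 0.29 SE, adjusted p = 6.2e-06) and 47.6-fold lower in LIF (difference -5.57 ± 0.29, adjusted p = 9.7e-08). One Nat1-null LIF array of 3 was not well above background at this probe. The second probe was not well above background on any Nat1-null array and gives bounds, at least 5.43-fold lower in Nat1-null cells in 2i+LIF and at least 12.9-fold lower in LIF. Under normexp the differences at the brighter probe were -3.04 and -4.27.

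Kcnq1ot1 differed far less between the media than between the genotypes. In WT cells the levels in 2i+LIF lay below all those in LIF, without a call (difference -0.63 ± 0.29, adjusted p = 0.081). A fit of these 2 groups alone gave the same difference with adjusted p = 0.0015, and leaving out Nat1-null LIF replicate 2 gave 0.0073. In Nat1-null cells the brighter probe was 2.14-fold higher in 2i+LIF than in LIF (adjusted p = 0.014), with overlapping groups. The second probe gave a difference of 0.19 (adjusted p = 0.72) with all arrays below background, and without Nat1-null LIF replicate 1 the call was lost (adjusted p = 0.053).

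**Figure D2:**
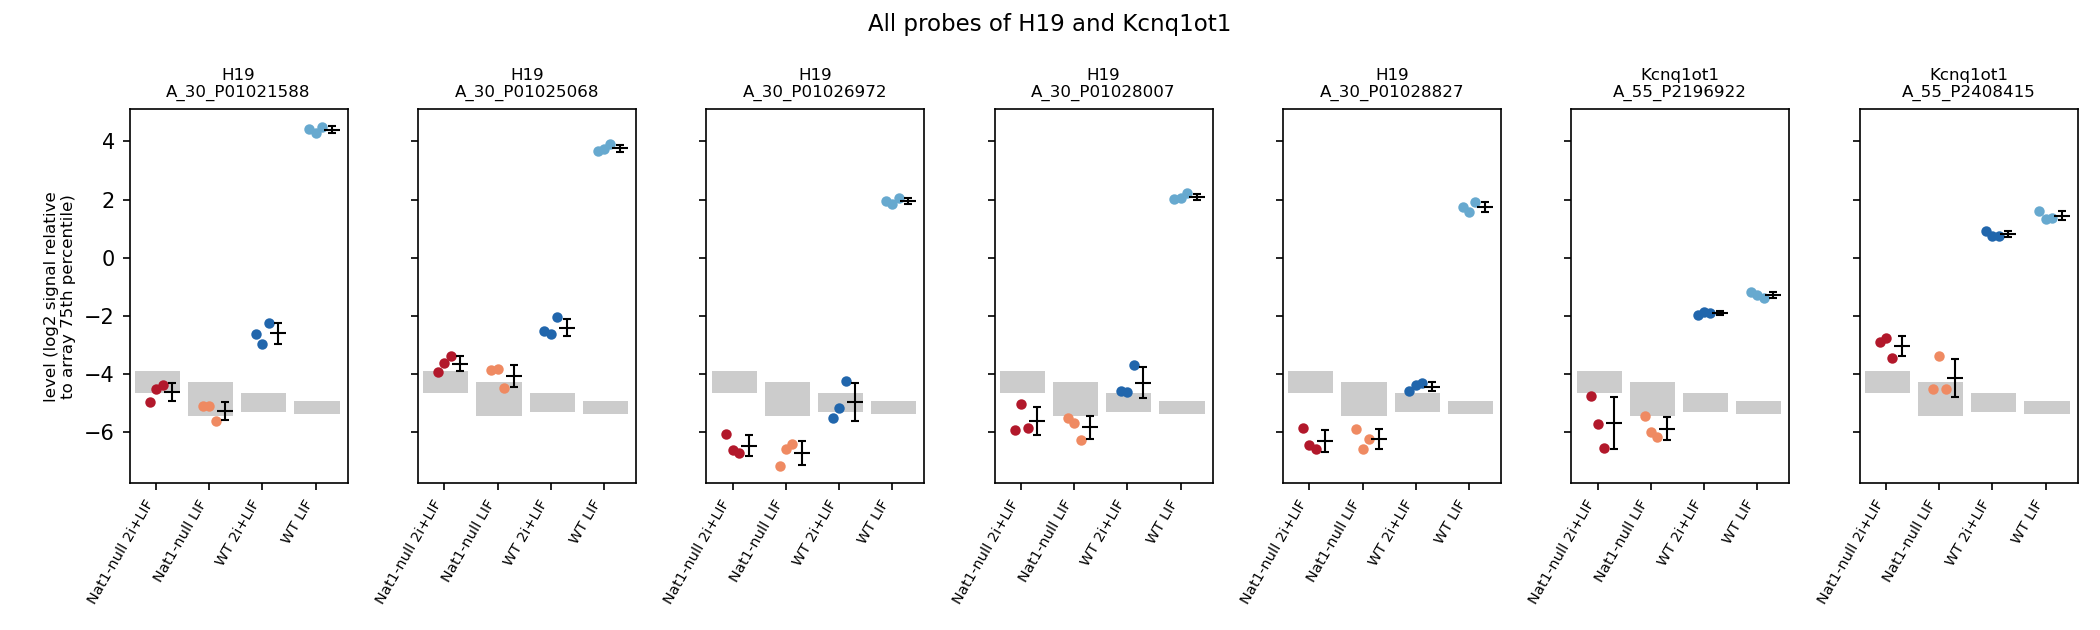
Level (log2 signal relative to the array's 75th percentile) at each of the 5 probes of H19 and the 2 probes of Kcnq1ot1 on the 3 arrays of each group, with mean and SD in black and the grey background bands of the levels plot. All H19 probes are high in WT LIF and near or below the band in Nat1-null cells, and both Kcnq1ot1 probes are higher in both WT groups than in Nat1-null cells. Levels are not comparable between probes.

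Cdkn1c, a maternally made inhibitor of cyclin-dependent kinases, was high in WT cells in LIF alone, as H19 was. Its levels were -0.78, -0.18 and -0.66 in Nat1-null cells in 2i+LIF and -0.67, -0.36 and -0.67 in Nat1-null cells in LIF. They were -0.05, -0.08 and -0.07 in WT cells in 2i+LIF, against 3.77, 3.76 and 3.81 in WT cells in LIF. All 12 arrays were well above background, so these differences do not rest on a floor. Nat1-null cells were 20.3-fold lower than WT cells in LIF (adjusted p = 6.1e-09), and WT cells were 14.4-fold lower in 2i+LIF than in LIF (adjusted p = 3.2e-08). Between the Nat1-null media the difference was 0.03 (adjusted p = 0.89). In 2i+LIF, Nat1-null cells were lower than WT cells (difference -0.47, adjusted p = 0.023). That call was lost without scaling between arrays (difference -0.25, adjusted p = 0.24), in a fit of the 2 groups alone (adjusted p = 0.065), without any 1 of the 3 WT 2i+LIF replicates (0.054 to 0.061), and without Nat1-null 2i+LIF replicate 1 (0.081) or 3 (0.076). The marker sums that were highest or lowest in WT LIF move with Cdkn1c as they do with H19, and their part was not tested.

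Ascl2, a maternally made transcription factor needed for the spongiotrophoblast of the placenta, was the only gene of the set whose genotype difference had opposite calls in the 2 media. It had levels of 1.87, 2.28 and 1.94 in Nat1-null cells in 2i+LIF and 0.22, 0.84 and -0.07 in Nat1-null cells in LIF. WT cells had 0.15, -0.04 and 0.23 in 2i+LIF, against 1.01, 1.10 and 0.97 in LIF. The Nat1-null 2i+LIF arrays were above all 9 others. Nat1-null cells were 3.78-fold higher than WT cells in 2i+LIF (difference 1.92 ± 0.20, adjusted p = 5.4e-05), and 1.62-fold lower in LIF (difference -0.70 ± 0.20, adjusted p = 0.012). In 2i+LIF against LIF, Ascl2 was 3.25-fold higher in Nat1-null cells (adjusted p = 1.6e-04) and 1.88-fold lower in WT cells (adjusted p = 0.0030). Without scaling between arrays the last difference was -1.48 in place of -0.91. With only the Nat1-null LIF array of the shared slide row, the genotype difference in LIF was -1.10. The lowest 2 groups, Nat1-null LIF and WT 2i+LIF, had overlapping values.

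Other trophoblast markers were also higher in Nat1-null cells in 2i+LIF. Of 8 tested besides Ascl2, 5 were called higher and 1 lower than in WT cells in 2i+LIF, where 21.0% of all genes were called higher. Of the same 8, 6 were called higher and 0 lower than in Nat1-null cells in LIF, where 21.4% of all genes were called higher. Against WT cells in 2i+LIF, Gata2 differed by 2.97, Krt18 by 1.88, Gata3 by 1.85 and Eomes by 1.47. Cdx2, a defining factor of trophoblast stem cells, was not above background in these groups. The part of these genes in the Ascl2 result was not tested.

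Phlda2 and Slc22a18 sit side by side beyond Cdkn1c, and were called in opposite directions in LIF. Phlda2, a maternally made gene that restrains placental growth, had levels of -0.09, 0.63 and 0.20 in Nat1-null cells in 2i+LIF, against 0.70, 0.61 and 0.52 in WT cells in 2i+LIF. In LIF it had -0.16, 0.78 and -0.06 in Nat1-null cells, against 0.88, 0.94 and 0.89 in WT cells. Replicate 2 of each Nat1-null group lay near the WT values and the other Nat1-null arrays lay below them. The genotype difference was -0.72 in LIF (adjusted p = 0.023) and -0.36 in 2i+LIF (adjusted p = 0.25). The call in LIF was lost in a fit of these 2 groups alone (adjusted p = 0.050), without any 1 WT LIF replicate (0.050 to 0.058), and without Nat1-null LIF replicate 1 (0.088) or 3 (0.079).

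Slc22a18, a maternally made transporter of the organic cation family, was higher in Nat1-null cells in both media. Its levels were 1.47, 1.76 and 1.46 in Nat1-null cells in 2i+LIF, against 0.47, 0.45 and 0.38 in WT cells in 2i+LIF. They were 1.35, 1.72 and 1.38 in Nat1-null cells in LIF, against 0.20, 0.21 and 0.31 in WT cells in LIF. The genotypes did not overlap. Nat1-null cells were 2.19-fold higher in 2i+LIF (adjusted p = 3.3e-05) and 2.37-fold higher in LIF (adjusted p = 4.8e-06). The media differed by 0.08 in Nat1-null cells (adjusted p = 0.59) and by 0.19 in WT cells (adjusted p = 0.16).

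Maternal expression of Tssc4 and Nap1l4 is known mainly from placenta. Tssc4 had levels of 3.19, 3.14 and 3.18 in Nat1-null cells in 2i+LIF, against 2.60, 2.75 and 2.60 in WT cells in 2i+LIF. In LIF it had 3.20, 2.97 and 3.25 in Nat1-null cells, against 2.69, 2.85 and 2.82 in WT cells. Nat1-null cells were higher by 0.52 in 2i+LIF (adjusted p = 6.5e-04) and by 0.36 in LIF (adjusted p = 0.0031), and the values did not overlap. Without scaling between arrays the difference in LIF was 0.20 (adjusted p = 0.071), and with quantile normalization it was 0.24 (adjusted p = 0.0089). Nap1l4, a histone chaperone, ranged from 1.30 to 1.64 over all 12 arrays, and none of its 4 differences, from -0.02 to 0.10, passed the test (adjusted p = 0.38 to 0.89). Its other probe was called higher by 0.20 for Nat1-null cells in LIF (adjusted p = 0.037) and by 0.31 for 2i+LIF in WT cells (adjusted p = 0.0047). Both probes had the same sign in each comparison and differed in which passed the threshold.

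**Figure D3:**
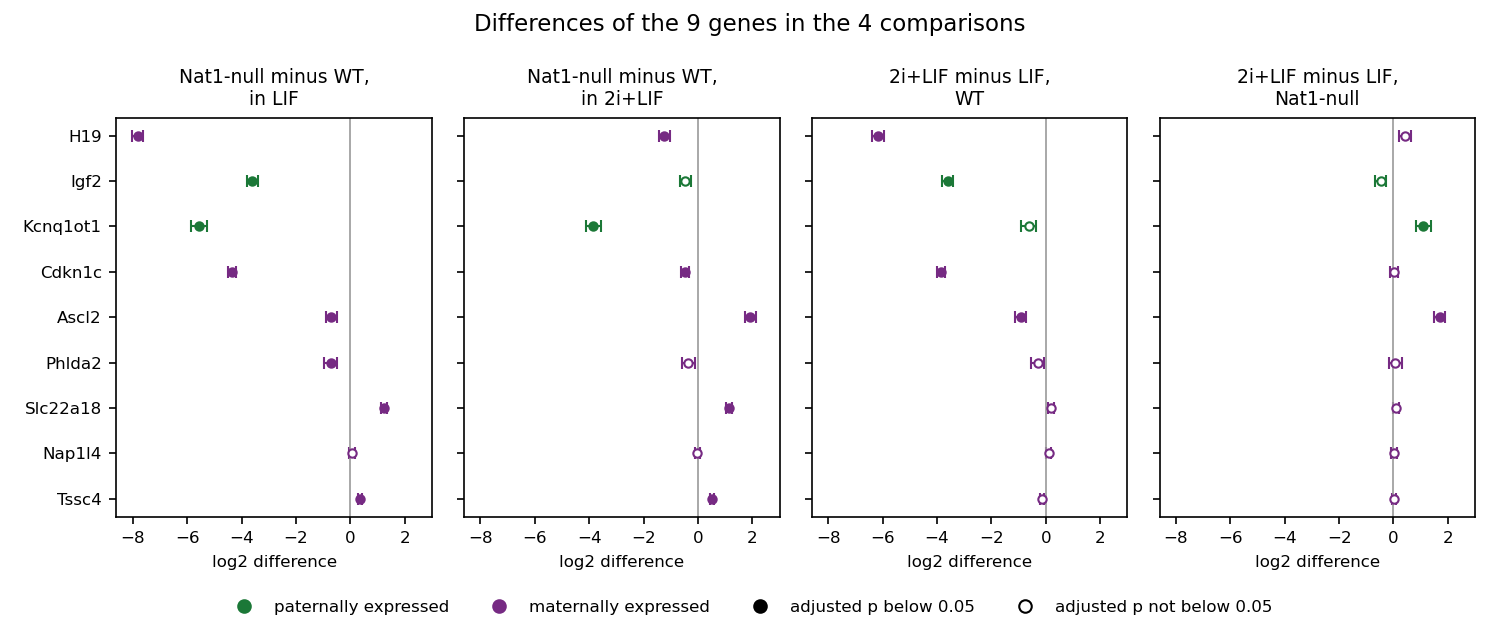
Log2 difference of each gene in the 4 comparisons, with the SE of the fit as the bar; filled points have an adjusted p below 0.05, and colour gives the parental copy known to be active. Kcnq1ot1 lies far below 0 in both genotype panels, H19, Igf2 and Cdkn1c lie far below 0 in LIF and in the WT medium panel, and Ascl2 changes side between the genotype panels. Points that involve Nat1-null levels of H19 and Kcnq1ot1, and all points of Igf2, rest in part on signals at or near background.

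Counted over the set, 8 of the 9 genes were called between the genotypes in LIF, 2 higher and 6 lower in Nat1-null cells. Calls were common on these arrays, since 66.8% of all 24463 genes were called in that comparison, 33.9% higher and 32.9% lower. In 2i+LIF 6 were called, 3 higher and 3 lower in Nat1-null cells, against 43.6% of all genes, 21.0% higher and 22.6% lower. For 2i+LIF against LIF, WT cells had 4 called, all lower, where 62.2% of all genes were called, 27.2% lower. Nat1-null cells had 2 called, both higher, where 37.1% of all genes were called, 21.4% higher. The effect of 2i+LIF differed between the genotypes for 5 of the 9, all in the positive direction, against 49.7% of all genes, 23.6% positive. Igf2 is one of these 5, and its interaction value is set by the signal in WT LIF alone. H19, another of them, lay near background in both Nat1-null groups. Large falls were less common over all genes. With a call and at least 4-fold lower were 4 of the 9 genes for genotype in LIF (H19, Igf2, Kcnq1ot1 and Cdkn1c), where 8.55% of all genes were. For genotype in 2i+LIF it was 1 of 9 (Kcnq1ot1), against 2.03%, and for 2i+LIF in WT cells 3 of 9 (H19, Igf2 and Cdkn1c), against 5.22%. Igf2 adds nothing to the counts of 4 and 3, since its fall was required for inclusion and was under 4-fold with normexp in both comparisons. The higher and lower shares depend on the scaling. Without it, the share of calls that were higher was 39.3% in place of 50.7% for genotype in LIF, 75.9% in place of 48.1% for genotype in 2i+LIF, 12.8% in place of 56.2% for 2i+LIF in WT cells, and 22.2% in place of 57.5% in Nat1-null cells. For the interaction 78.5% of calls were positive without scaling, in place of 47.4%.

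By parental copy, the 2 paternally made genes were both lower in Nat1-null cells in LIF, Kcnq1ot1 by 47.6-fold and Igf2 by at least 6.88-fold. Under normexp the Igf2 difference was -1.51, smaller than that bound. Of the 7 maternally made genes, 2 were called higher and 4 lower in that comparison, with a median of -0.70. In 2i+LIF, Nat1-null cells had Kcnq1ot1 lower, while Igf2 was not well above background in either genotype, and 3 maternally made genes were higher and 2 lower (median -0.02). For 2i+LIF in WT cells, Igf2 and 3 maternally made genes were lower, with a median of -0.29 over the 7. In Nat1-null cells, Kcnq1ot1 and 1 maternally made gene, Ascl2, were higher, with a median of 0.06 over the 7. No median is given for the paternally made genes, as Igf2 has no measured level in 3 of the 4 groups. The medians over all genes were between -0.01 and 0.06 in the 4 comparisons, and the shares of all genes called are those given with the counts over the set. Both classes hold genes that were far lower in Nat1-null LIF, H19 and Cdkn1c from the maternal copy and Kcnq1ot1 from the paternal one. Igf2 cannot bear on this, since it passed the filter through WT LIF alone. With 2 genes in a class, and as only part of the set is imprinted outside placenta, no difference between the classes was tested. The comparisons share groups, so their counts are not independent of each other.

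Among neighbours that are imprinted or reported as imprinted in placenta, 10 of 12 were tested. In Nat1-null cells, 3 were higher and 5 lower in LIF, and 4 were higher and 2 lower in 2i+LIF. Of all genes, 33.9% were called higher and 32.9% lower in LIF, and 21.0% higher and 22.6% lower in 2i+LIF. Tspan32, a tetraspanin gene, was 3.22-fold higher in LIF (adjusted p = 5.4e-06) and 4.25-fold higher in 2i+LIF (adjusted p = 5.5e-06). Kcnq1, the potassium channel gene within which Kcnq1ot1 starts, was higher in Nat1-null cells by 2.08 ± 0.54 in 2i+LIF (adjusted p = 0.011) and by 1.39 ± 0.54 in LIF (adjusted p = 0.043). It lay close to background, with 2 of 3 arrays well above it in each WT group and in Nat1-null LIF. Kcnq1 thus passed the filter through Nat1-null 2i+LIF alone, so a higher signal in that group was favoured by its inclusion. In chromosome order the tested genes from Ascl2 to Kcnq1 are Ascl2, Tspan32, Cd81, Tssc4 and Kcnq1, and all 5 were called higher in Nat1-null cells in 2i+LIF. Cd81 differed there by 0.48. In LIF the same genes were called higher apart from Ascl2, which was lower. This run of genes was picked out after its values were seen, and Kcnq1 adds nothing to it in 2i+LIF.

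Osbpl5, a lipid-transfer protein gene made from the maternal copy in placenta, was instead 8.56-fold lower in Nat1-null cells in LIF (adjusted p = 1.4e-08). In 2i+LIF it was 1.42-fold higher in Nat1-null cells (adjusted p = 0.0056). Igf2os, the antisense transcript at Igf2, was called lower in Nat1-null than in WT cells in LIF (adjusted p = 9.6e-05) and lower in 2i+LIF than in LIF in WT cells (adjusted p = 1.3e-04). It was well above background on all 3 arrays of WT LIF and on 1 of the other 9, so no size is given. Like Igf2, it passed the filter through WT LIF alone, so a difference from that group was required for it to be tested. Of the flanking genes not known as imprinted, 10 of 12 were tested, with 1 higher and 7 lower in Nat1-null cells in LIF, and 5 higher and 1 lower in 2i+LIF. The shares over all genes were 33.9% higher and 32.9% lower in LIF, and 21.0% higher and 22.6% lower in 2i+LIF. Lsp1, an actin-binding protein gene of white cells a few genes from H19, had differences of -5.56 for genotype in LIF and -5.51 for 2i+LIF in WT cells (adjusted p = 2.6e-09 and 6.6e-09). The troponin gene Tnni2, next to Lsp1, had -4.26 and -3.67. Lsp1 and Tnni2, which are not known as imprinted, were thus also higher in WT LIF than in these 2 groups.

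**Figure D4:**
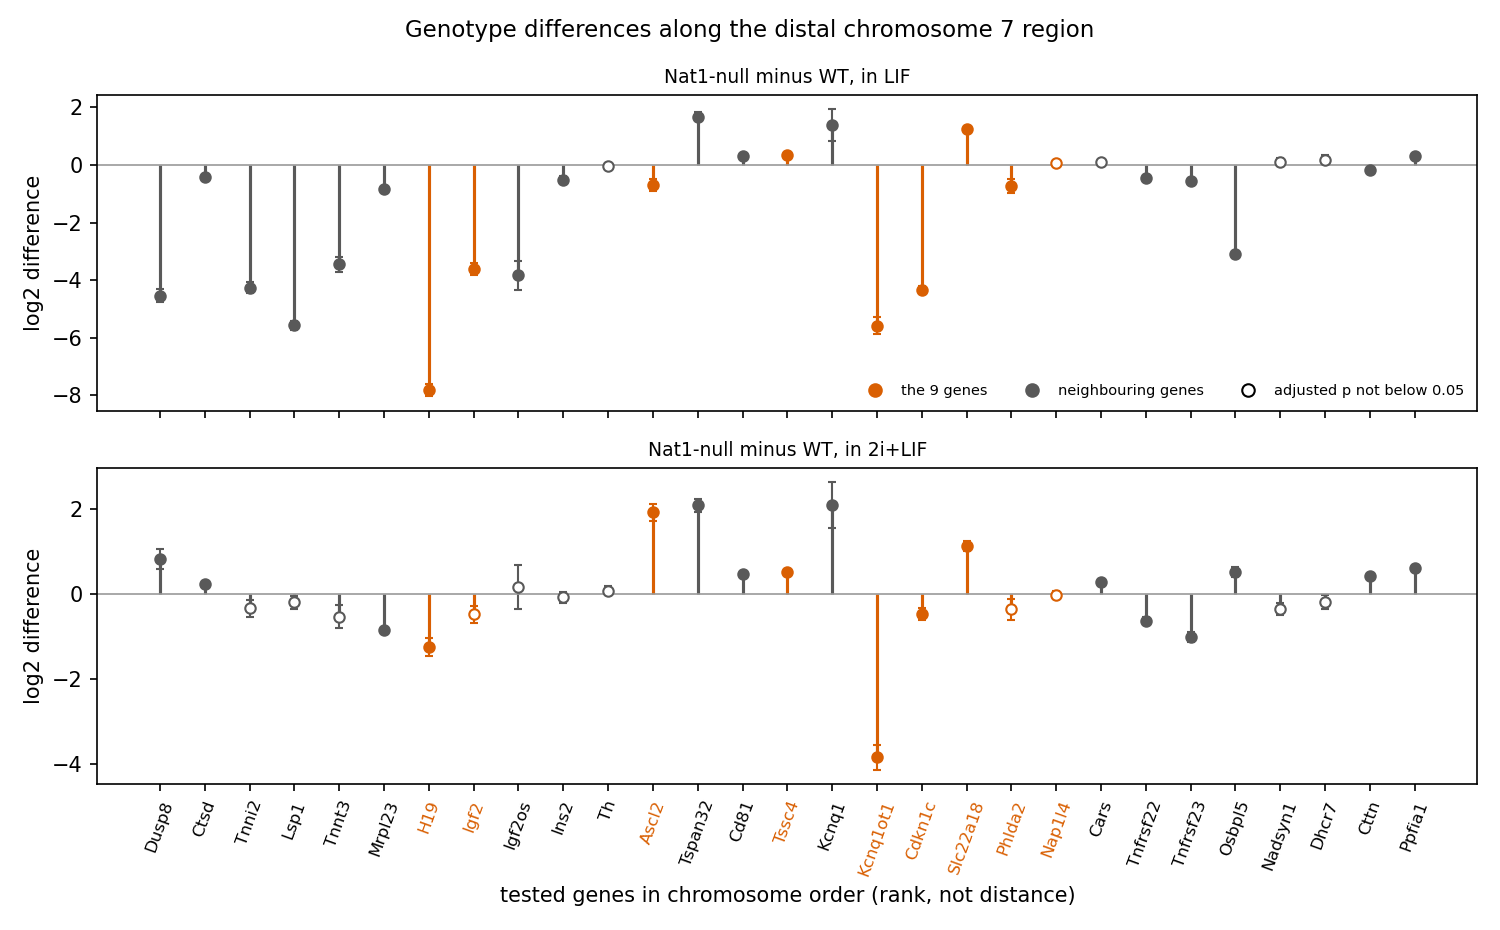
Log2 difference (Nat1-null minus WT, bars are the SE of the fit) in LIF and in 2i+LIF for the tested genes of the region, spaced by rank along the chromosome. The 9 genes are in orange, and open points have an adjusted p not below 0.05. In LIF, Dusp8, Tnni2, Lsp1, Tnnt3, H19, Igf2 and Igf2os lie far below 0, as do Kcnq1ot1, Cdkn1c and Osbpl5, and in 2i+LIF Kcnq1ot1 alone lies below -2 while Ascl2, Tspan32 and Kcnq1 lie near 2.

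Genes of imprint protection and of DNA methylation, Tet1 and Tet2 among them, were measured with the same arrays. Of 18, 10 were higher and 5 lower in Nat1-null cells in LIF, and 5 higher and 2 lower in 2i+LIF. Of all genes, 33.9% were called higher and 32.9% lower in LIF, and 21.0% higher and 22.6% lower in 2i+LIF. Dppa3, which guards imprints in the early embryo, was 103-fold lower in Nat1-null cells in LIF (difference -6.68, adjusted p = 1.6e-10) and was 7.56-fold higher in 2i+LIF than in LIF in Nat1-null cells. In WT cells it was 15.8-fold lower in 2i+LIF than in LIF (adjusted p = 4.7e-09). The de novo methyltransferase gene Dnmt3a was 2.68-fold lower in Nat1-null cells in 2i+LIF and 2.80-fold lower in LIF. Dnmt3b was 2.00-fold higher in Nat1-null cells in 2i+LIF and 4.61-fold lower in LIF. Trim28, the corepressor recruited by ZFP57, was 1.60-fold higher in Nat1-null cells in 2i+LIF. For 2i+LIF in WT cells 8 were higher and 4 lower, where 62.2% of all genes were called, 27.2% lower. Dnmt3l was 24.0-fold lower and Tet2 2.87-fold higher there. DNA methylation was not measured here.

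Of 12 genes of the Igf2 axis, 2 were higher and 7 lower in Nat1-null cells in LIF, and 1 higher and 3 lower in 2i+LIF. All genes had 33.9% higher and 32.9% lower in LIF, and 21.0% higher and 22.6% lower in 2i+LIF. Lin28b, an RNA-binding protein that blocks let-7, was 7.39-fold lower in Nat1-null cells in 2i+LIF and 8.56-fold lower in LIF. Igfbp5 and Igfbp3, which bind IGF outside the cell, were both called lower in Nat1-null cells in LIF. Igfbp3 differed by -3.32. Igfbp5 (adjusted p = 1.4e-07) passed the filter through WT LIF alone, so a fall from that group was favoured by its inclusion. With 2 of 3 Nat1-null LIF arrays well above background, no size is given for Igfbp5, which is among the 7 lower. The receptor genes had small differences between Nat1-null and WT cells in LIF, -0.07 for Igf2r and -0.23 for Igf1r (adjusted p = 0.53 and 0.074).

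Of 21 imprinted genes of other loci that were tested, 2 were higher and 19 lower in Nat1-null cells in LIF, with a median difference of -3.01. In 2i+LIF 6 were higher and 10 lower (median -0.46). For 2i+LIF in WT cells 2 were higher and 17 lower (median -1.54), and in Nat1-null cells 4 were higher and 6 lower (median -0.06). Over all genes, 33.9% were called higher and 32.9% lower for genotype in LIF, and 21.0% higher and 22.6% lower in 2i+LIF. For 2i+LIF against LIF, 62.2% of all genes were called in WT cells, 27.2% lower, and 37.1% in Nat1-null cells. Snrpn, a paternally made gene whose control region is methylated on the maternal chromosome as that of Kcnq1ot1 is, was 30.2-fold lower in Nat1-null cells in 2i+LIF and 69.7-fold lower in LIF. Dlk1, also made from the paternal copy, was called lower in both media (adjusted p = 1.5e-07 in 2i+LIF and 5.4e-10 in LIF), with no Nat1-null array well above background and so no size given. It passed the filter through the WT groups alone. Dcn, one of this list, is also a fibroblast marker, and it passed the filter through WT LIF alone. Peg3 and Zim1, like Dlk1, passed through WT groups alone. The counts and medians hold these genes, whose lower values in Nat1-null cells were favoured by inclusion. Zim1 is among the 4 called higher for 2i+LIF in Nat1-null cells, although no Nat1-null array was well above background for it. Plagl1 was higher in 2i+LIF than in LIF in Nat1-null cells (difference 5.52, adjusted p = 3.8e-08).

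Genes whose levels followed a member most closely over the 12 arrays were sought among 15422 named genes. Their Pearson correlations are a description, since the arrays fall into 4 groups and share slides. The genes most like H19 were Timp3 (r = 0.999), Egfr (0.997) and Lrig3 (0.996). For Igf2 they included Klhl30 and Serpinf1 (both 0.995), and for Cdkn1c they were Krt20, Gpx3 and Syt13 (0.999 to 0.997). Kcnq1ot1 was followed by Cd59a, Plcl2 and Pter, each at 0.994. Slc22a18 was followed by Fgfr3 (0.994), Gm4984 and Il17rc (both 0.989), and Ascl2 by AI661453 (0.987), Plekha2 (0.982) and Slco2a1 (0.979). Phlda2, Nap1l4 and Tssc4 varied by less than 1 on the log2 scale between group means and were not searched.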

How the data were processed

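Per the file headers, the authors' deposited scanner files hold one-colour Cy3 intensity values, background-subtracted within an array by Agilent Feature Extraction 10.7.3.1. A table of the series deposited by the authors gives log2 values of these arrays. Set against recomputed log2 values, it correlated at 1 on each array, with the 75th percentile of an array at 0, and its column medians lay between -3.87 and -3.59. The main values are log2 processed signals minus that percentile, without control spots and outlier spots. A value on all 12 arrays was found for 54229 of 55681 probes, and 33293 were kept because all 3 arrays of at least 1 group were well above background. The probe with the highest mean stood for a gene. Probes were named through accessions matched to RefSeq, assembly GRCm38.p6, and 27667 received a symbol. 11 probes of 6 genes, H19 among them, carry a symbol in place of an accession.

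limma 3.58.1 in R 4.3.3 fitted 4 group means. Tests were two-sided, and p-values were adjusted by Benjamini-Hochberg over 24463 genes. The fit was tested on simulated data. The lowest correlation between replicates was 0.988. Precision is limited by the number of arrays, and where replicates are not separate cultures the p-values measure only technical spread, since the labels do not say. Alternatives were other background, scaling, filter, probe and group choices, a replicate block, and each replicate left out. Whether replicate numbers pair the samples is not stated in the labels, and the main fit left them unpaired. Residuals correlated above 0.1 in 1 of 18 same-number pairs (range -0.0689 to 0.301). That pair was replicate 2 of Nat1-null LIF and of Nat1-null 2i+LIF. Pairs of different number were not set beside these, so pairing of the Nat1-null arrays cannot be decided.

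The 9 genes are named whatever their values. The value of 1 gene among those most like a member is not reported here. Of each other list, up to 4 called genes with the largest differences in a comparison could be named. Cd81, Igf2r, Igf1r and the smaller Osbpl5 difference were named after their values were seen. The genes and lists were chosen with earlier results of these data known.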

Additional observations from a re-analysis of the deposited data

Results flagged for a closer look

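The effect of 2i+LIF differed between the genotypes for 5 of the 9 genes, as counted above. The value tested is the 2i+LIF minus LIF difference in Nat1-null cells minus that in WT cells, by limma's interaction term. It was 6.58 for H19 (adjusted p = 2.2e-07), 3.87 for Cdkn1c (4.4e-07), 3.14 for Igf2 (1.6e-05), 2.62 for Ascl2 (5.3e-05) and 1.73 for Kcnq1ot1 (0.0055). Igf2 was well above background in WT LIF alone, so its value is set by that group and the floor and has no reliable size. H19 lay near background in both Nat1-null groups, so a fall with 2i+LIF could hardly be seen there. The H19 value rests mainly on its difference of -6.16 in WT cells. At the other Kcnq1ot1 probe, which was not well above background on any Nat1-null array, the value was 0.81 (adjusted p = 0.22), and it cannot bear on the first. The 4 groups lie on 3 slides, so this difference and the slides of the WT groups cannot be told apart.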

How the results depend on the processing

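Over 1026 recomputed values, 983 kept their side of the threshold, 19 lost a call, 22 gained one and 2 reversed. A reversal is a change of sign with a call in at least 1 of the fits. Changes of sign without a call in either fit are among the 983. Both reversals came without scaling between arrays, for 2i+LIF in WT cells, where the median of all genes was -0.50 in place of 0.06. Slc22a18 was then -0.37 and Nap1l4 -0.47. In that setting 9 of the 9 genes were called for 2i+LIF in WT cells in place of 4. Requiring all 12 arrays well above background, which removes H19, Igf2 and Kcnq1ot1, left 5 called for genotype in LIF, 2 for 2i+LIF in WT cells, 1 for 2i+LIF in Nat1-null cells and 2 for the interaction. Fits of only the groups compared gave 7 for 2i+LIF in WT cells and 1 in Nat1-null cells, where over all genes 4846 were called in place of 9079. The mean of a gene's probes gave 1 for 2i+LIF in Nat1-null cells. With 1 replicate left out, 7 to 8 of the 9 were called for genotype in LIF, 5 to 6 for genotype in 2i+LIF, 4 to 5 for 2i+LIF in WT cells, 1 to 3 in Nat1-null cells and 5 to 6 for the interaction. Over all genes the ranges were 14942 to 16567, 8970 to 11890, 13753 to 16088, 7334 to 10120 and 10912 to 12951. The lone value of 1 for the 9 genes arose without Nat1-null LIF replicate 1. With replicate number as a block, 16229 genes were called for genotype in LIF, 10459 for genotype in 2i+LIF, 15147 for 2i+LIF in WT cells, 8789 in Nat1-null cells and 11990 for the interaction, and the counts of the 9 genes stayed at 8, 6, 4, 2 and 5. The causes of these shifts were not tested. Signal over background limits H19 and Kcnq1ot1 in Nat1-null cells, and Igf2 in every group but WT LIF, where differences near the floor have no reliable size.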
